A study of Mus musculus with 6 samples.

Results

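The nuclear pore is the gate through which proteins enter the nucleus and RNA leaves it. The genes described here encode its subunits and the factors that carry RNA and protein through it. A list of 44 genes was written by name, 26 of them for nucleoporins and 18 for transport and export factors, and every probe set whose single platform symbol was on the list was taken. This gave 70 probe sets for 40 of the 44 genes, out of 45141 probe sets and 17097 named genes on the array. Nup85, Nup35, Tpr and Thoc3 were not analysed here, since no probe set in the annotation used carried their symbol alone. The rule uses gene names and no measured value, but the list was drawn up with earlier results of these data known.

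The study compared wild type (WT) mouse fibroblasts derived from embryonic stem cells with fibroblasts of the same origin that lack CD98hc (CD98hc KO), the heavy chain of a family of amino acid transporters, encoded by Slc3a2. Both genotypes were grown in complete high glucose DMEM that contained β-mercaptoethanol, and total RNA was hybridised to Affymetrix mouse arrays, 3 labelled WT and 3 labelled KO. The labels number the arrays of either genotype 1, 3 and 5. The deposited values are log2 signals made by Robust Multichip Average (RMA). Neither the labels nor the paper tell if replicate arrays stem from different cultures, or if a genotype is 1 clone. The p-values below may thus rest on technical variation alone.

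The labels of these arrays are in part in doubt. Slc3a2 was higher on the arrays labelled KO (log2 11.54 to 11.65) than on those labelled WT (10.51 to 10.67), by 0.98 (standard error 0.075, adjusted p = 0.00012 from limma), which goes against the label, although it is unknown if its 1 probe set lies in the deleted exons. The 12 pluripotency markers on the array were all higher under the KO label, with list medians of 11.07 to 11.25 against 4.51 to 4.76 on the arrays labelled WT, and Pou5f1, which encodes the stem cell factor Oct4, read 4.64 to 4.94 on the arrays with the WT label against 11.92 to 12.07 on the others. All 8 epithelial markers were higher too (list medians 8.35 to 8.41 against 4.79 to 4.98). Of 15 fibroblast and matrix markers 9 were lower and 1 was higher (list medians 4.92 to 5.04 against 10.23 to 10.98), and Cd44 and Col6a1 read 3.93 to 4.37 under the KO label, near 4.23, the median of the 23 probe sets for nonspecific background. Of 5 trophoblast markers 3 were higher, and of 5 endoderm markers 2 were lower. Groups are therefore called by their labels throughout, and the part of cell type in the results below was not tested. Both replicate 3 arrays also stood apart, with a mean of 8.86 and 8.87 over 18 hybridisation-control probe sets against 10.01 to 10.14 on the other 4 arrays.

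A nuclear pore is built from rings of scaffold nucleoporins held in the nuclear envelope by membrane nucleoporins. Nucleoporins rich in phenylalanine-glycine (FG) repeats fill the channel, filaments reach into the cytoplasm, and a basket extends into the nucleus. Importins and exportins carry proteins and several classes of RNA through the channel under the direction of the small GTPase Ran, whereas most mRNA is handed by the THO complex and its partners to the export receptor formed by Nxf1 and Nxt1.

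Transcripts of the pore were on the whole higher under the KO label. Of the 40 genes, each represented by its most variable probe set, 23 (57.5%) rose, 1 fell (Thoc7) and 16 did not pass at an adjusted p under 0.05. Over all 17097 genes 22.6% rose and 19.2% fell. With only probe sets of a mean of 6 or more these shares were larger, 29.61% and 28.88%, beside 23 higher and 1 lower of 38 listed genes. The median log2 change of the 40 genes was 0.43, against 0.02 over all genes, and single genes ranged from −0.30 to 4.10. Most of these changes were small. By over 2-fold, 4 of the 40 genes rose (Nup210, Nup62, Xpo1 and Nup133), a share close to the 9.27% of all genes that did. As large a fall was seen for 0 of the 40 and for 10.1% of all genes. Nucleoporins and transport factors are given apart in what follows, and 16 of 23 nucleoporins rose with 0 lower (median 0.53), against 7 higher and 1 lower of 17 transport and export factors (median 0.39). Whether these 2 sets differ was not tested. Each part described below holds 2 to 7 measured genes. Its count is to be set beside the 22.6% higher and 19.2% lower of all genes, and no part was tested against these shares. On the 4 arrays of replicates 1 and 5 alone, 18 of the 40 genes rose and 0 fell, where 18.69% and 16.56% of all genes did. With a covariate for replicate 3 there were 26 higher and 1 lower, where 25.78% and 21.48% of all genes were. The median change was 0.43 both ways. The KO-labelled arrays all had a higher median over all probe sets (5.695 to 5.711) than the WT-labelled ones (5.619 to 5.641). With arrays centred at their medians, 22 of the 40 genes rose and 1 fell, where 19.44% and 22% of all genes did. The median change of the 40 genes was then 0.36, against −0.06 over all genes. Nup37 did not pass after centring (0.35, limma adjusted p = 0.083). The calls of 7 genes with small changes (Nup107, Nup37, Nup54, Ran, Phax, Snupn and Thoc7) ended when single arrays were left out, with adjusted p-values of 0.051 to 0.12 from limma. In bulk RNA, more cells of a kind and more transcript per cell cannot be told apart.

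**Figure D1:**
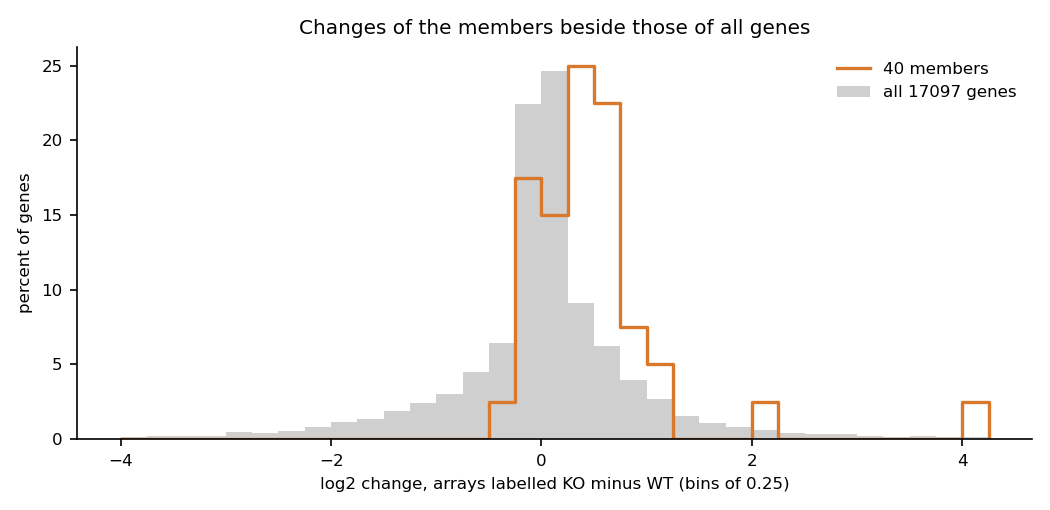
Histogram of the log2 change, arrays labelled KO minus arrays labelled WT, in bins of 0.25, as percent of the 40 nuclear pore and export genes (line) and of all 17097 genes (grey). The 40 genes have a median of 0.43 and all genes of 0.02, and Nup62 (2.14) and Nup210 (4.10) stand alone to the right. Genes beyond the axis are counted in the percent but not drawn.

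Nup210 had by far the largest change. It encodes gp210, a membrane nucleoporin with a large domain in the lumen of the nuclear envelope, and is known for expression that varies between cell types. Its 1 probe set (1417585_PM_at) read 5.08, 4.97 and 4.66 on the arrays labelled WT and 8.95, 8.92 and 9.13 on those labelled KO. All 3 WT values were low and all 3 KO values high, with no overlap. The log2 rise was 4.10 (limma, standard error 0.13, adjusted p = 3.8e-06), or 17.1-fold, and was 4.17 on the arrays of replicates 1 and 5. The WT values lie close to the nonspecific median of 4.23, so the fold change may be an underestimate. The other genes listed with it changed less. Aaas, whose product aladin is held at the pore by the membrane nucleoporin Ndc1, rose by 0.49 (adjusted p = 0.011), with 10.42 to 10.43 on the WT-labelled and 10.78 to 11.14 on the KO-labelled arrays. Pom121, a membrane nucleoporin that is needed early in pore assembly, had a difference of 0.10 with overlapping groups (adjusted p = 0.73). Ndc1, outside the list, had a difference of 0.17 that did not pass (adjusted p = 0.23).

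The 3 listed nucleoporins of the central channel all rose by their most variable probe set (median 0.57), while Nupl1, a channel nucleoporin outside the list, fell by −1.06 (adjusted p = 0.00061). Nup62, an FG nucleoporin at the heart of the channel, had a large change on 1 of its 3 probe sets only. Probe set 1448150_PM_at read 5.75, 5.86 and 5.82 for the WT label, against 7.77, 8.12 and 7.95 for the KO label. These groups lay far apart, with a rise of 2.14 on the log2 scale (limma, standard error 0.10, adjusted p = 2e-05) or 4.40-fold. Probe set 1415925_PM_a_at read 11.34, 11.37 and 11.13 against 11.40, 11.62 and 11.48, a difference of 0.22 (adjusted p = 0.14 over all probe sets). Probe set 1415926_PM_at read 11.24, 10.82 and 11.01 against 11.13, 11.04 and 11.21, a difference of 0.10 (adjusted p = 0.59). The first of these had groups that only just separated and the second had groups that overlapped. The change on 1448150_PM_at exceeded that on the other 2 by 1.91 (standard error 0.12, adjusted p = 5e-05) and by 2.03 (standard error 0.18, adjusted p = 0.00022). The call for Nup62 therefore rests on a single probe set, and with its brightest probe set the gene did not pass (0.22, adjusted p = 0.13). Nup54, which forms a complex with Nup62 in the channel, rose by 0.57 (adjusted p = 0.018), and Nup98, an FG nucleoporin found on both faces of the pore, rose by 0.53 (adjusted p = 0.0028).

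The outer ring, or Y complex, is the coat-like scaffold on both faces of the pore. Of its 7 measured members 5 rose and 0 fell (median 0.43). Nup133, at the end of the stem of the Y, rose most. Probe set 1457542_PM_at read 6.21, 6.13 and 5.95 for the WT label, against 7.16, 7.15 and 7.44 for the KO label, with a rise of 1.15 on the log2 scale (limma, standard error 0.11, adjusted p = 0.00033) or 2.22-fold. Its other probe set, 1441235_PM_at, read 4.73, 4.65 and 4.50 against 5.52, 5.33 and 5.06, a change of 0.68 (adjusted p = 0.0084 over all probe sets). Both probe sets separated the groups, and their changes were not shown to differ (difference 0.47, standard error 0.19, adjusted p = 0.13). Nup160, also in the Y, rose by 0.80 (adjusted p = 0.012), Nup43 by 0.57 (adjusted p = 0.0021), Nup37 by 0.43 (adjusted p = 0.047) and Nup107 by 0.30 (adjusted p = 0.017). Seh1l and Sec13, which also serve outside the pore in the control of mTORC1 and, for Sec13, in the COPII coat, had differences of −0.04 and −0.07 with overlapping groups (adjusted p = 0.88 and 0.67).

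In the inner ring, 2 of 4 measured genes rose and 0 fell (median 0.29). Nup93, which links the scaffold to the channel nucleoporins, rose by 0.71 (adjusted p = 0.00051), with 10.44 to 10.62 on the WT-labelled and 11.25 to 11.30 on the KO-labelled arrays. Nup205, a large partner of Nup93, rose by 0.40 (adjusted p = 0.0052) on 1 probe set, and by its brighter probe set had a difference of 0.32 that did not pass. Nup188, the paralog of Nup205, had differences of 0.18 and 0.32 on its 2 probe sets, neither of which passed, although the first did with a covariate for replicate 3 (adjusted p = 0.048). Nup155, another scaffold nucleoporin, read a mean of 4.75 and 4.59, near the nonspecific median, with a difference of −0.16 (adjusted p = 0.50), so little can be read from it.

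On the cytoplasmic side 2 of 4 genes rose and 0 fell (median 0.32). Nup214, an FG nucleoporin at which exported mRNA is released, rose by 0.59 (adjusted p = 0.008), whereas its partner Nup88 had a difference of 0.07 with overlapping groups (adjusted p = 0.67). Rae1, an mRNA export factor that binds Nup98, rose by 0.58 on probe set 1429528_PM_at (adjusted p = 0.0035). Its other probe set had means of 3.94 and 3.90, at the level of nonspecific background, and a difference of −0.04. Ranbp2, the giant nucleoporin of the cytoplasmic filaments, likewise read 3.96 and 3.92 on its 1 probe set and had a difference of −0.03 (adjusted p = 0.83).

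Both measured genes of the nuclear basket rose. Nup50, a mobile basket protein that helps release cargo from importins, rose by 0.92 on 1422719_PM_s_at (adjusted p = 0.0017), where the arrays labelled WT read 9.11 to 9.45 and those labelled KO 10.02 to 10.34. A second probe set gave 0.82, and the third, 1450722_PM_at, gave 0.31 with overlapping groups and did not pass. Each of the first 2 exceeded the third, by 0.61 (adjusted p = 0.0086) and 0.51 (adjusted p = 0.019). Nup153, which anchors the basket to the ring, rose by 0.77 (adjusted p = 0.00041) on a probe set whose suffix (_s_at) marks probes shared between transcripts. Its other probe set read a mean of 5.08 and 5.31 and gave 0.22 (adjusted p = 0.086 over all probe sets). The most variable probe sets of Nup50, Nup43 and Nup107 carry the same suffix. Without shared-probe sets Nup50 (0.82, limma adjusted p = 0.002) and Nup43 (0.48, limma adjusted p = 0.0056) still passed, and Nup107 had no other probe set.

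**Figure D2:**
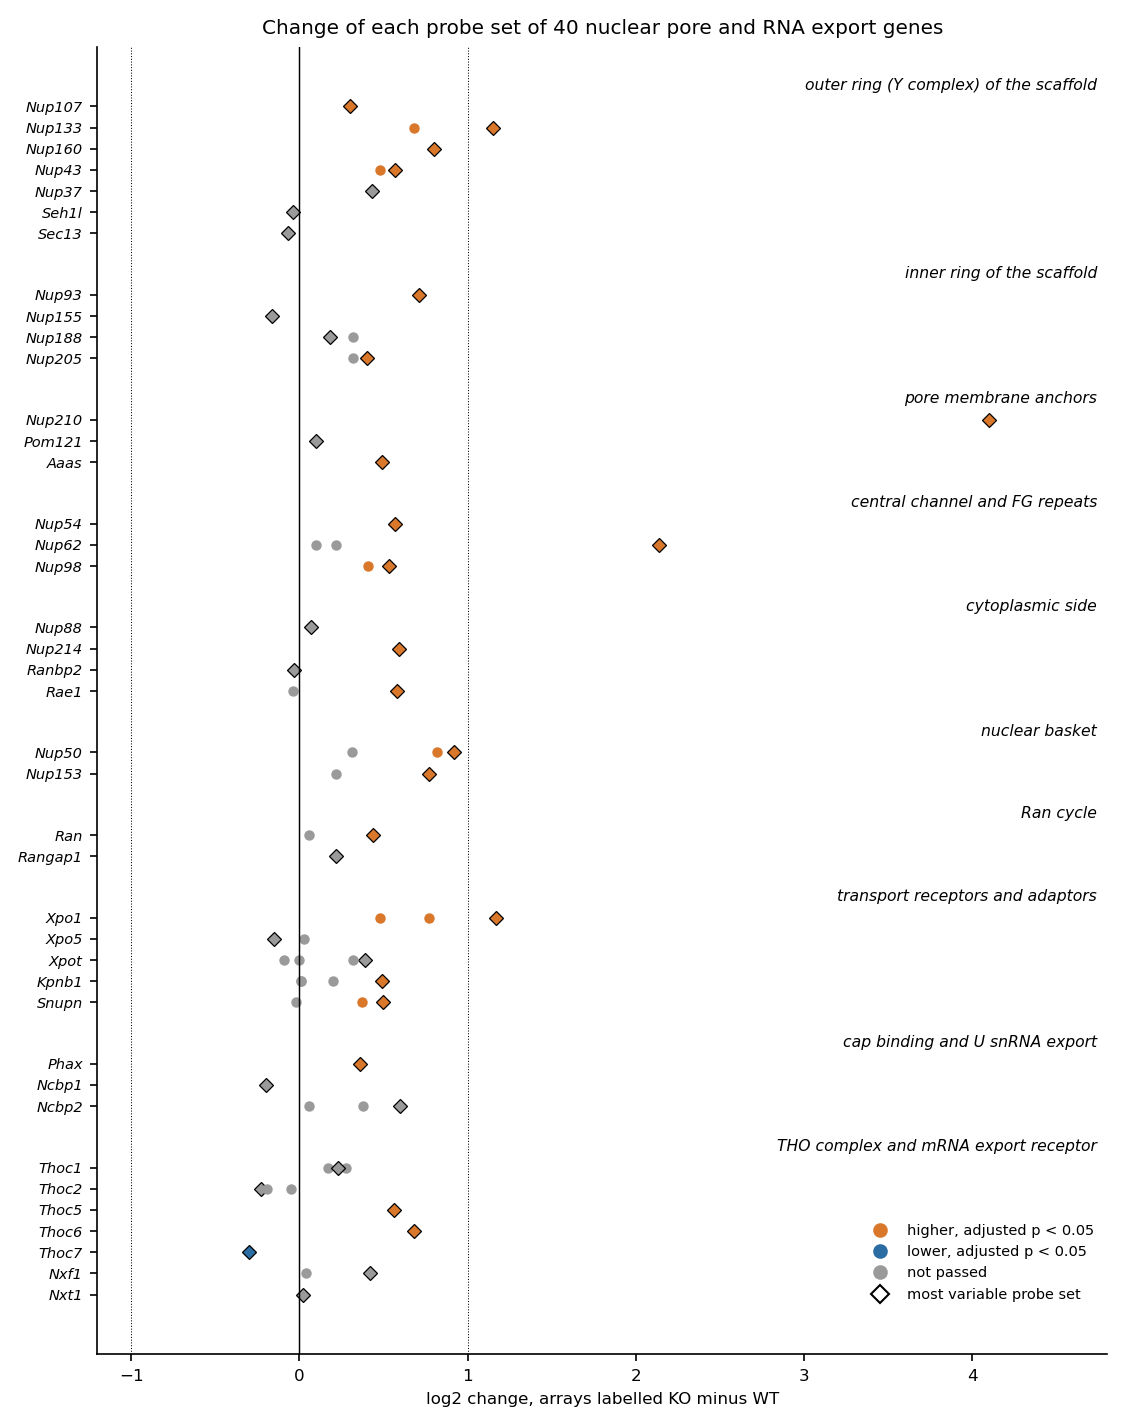
Log2 change, arrays labelled KO minus arrays labelled WT, of each of the 70 probe sets of 40 genes grouped by role, with 1 point per probe set and a diamond for the most variable probe set of a gene. Colour shows the call at an adjusted p under 0.05 over all probe sets, by which Nup37 (0.058) is not passed although it passed over genes, and dotted lines mark 2-fold.

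Among the transport receptors and adaptors 3 of 5 rose and 0 fell (median 0.49). Xpo1 encodes CRM1, the exportin for proteins with leucine-rich export signals and, with adaptors, for U snRNA, and it was higher on every one of its 3 probe sets. Probe set 1448070_PM_at read 6.10, 6.37 and 6.26 for the WT label, against 7.39, 7.67 and 7.18 for the KO label, with a rise of 1.17 on the log2 scale (limma, standard error 0.14, adjusted p = 0.00086) or 2.25-fold. Probe set 1418442_PM_at read 9.28, 9.29 and 9.23 against 10.03, 10.07 and 10.00, a change of 0.77 (adjusted p = 0.00023 over all probe sets). Probe set 1418443_PM_at read 10.11, 9.99 and 9.66 against 10.33, 10.56 and 10.31, a change of 0.48 (adjusted p = 0.037 over all probe sets). No probe set had overlapping groups, but the sizes were unequal, and the change on 1448070_PM_at exceeded that on 1418443_PM_at by 0.69 (standard error 0.17, adjusted p = 0.027). By the brightest probe set Xpo1 rose by less than 2-fold.

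Kpnb1, importin beta, the receptor of classical protein import, rose by 0.49 on its most variable probe set (adjusted p = 0.0028), but the other 3 gave 0.01, 0.01 and 0.20 and did not pass. The first exceeded each of the probe sets at 0.01 by 0.48 (adjusted p = 0.025) and 0.47 (adjusted p = 0.018). Snupn, snurportin, which returns assembled U snRNPs to the nucleus, rose by 0.50 (adjusted p = 0.018) and by 0.37 on a second probe set, while the third lay at the nonspecific level with a difference of −0.02. Xpot and Xpo5, the exportins of tRNA and of microRNA precursors, did not pass on any of their 4 and 2 probe sets. Their changes ranged from −0.09 to 0.39 for Xpot and from −0.15 to 0.03 for Xpo5.

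**Figure D3:**
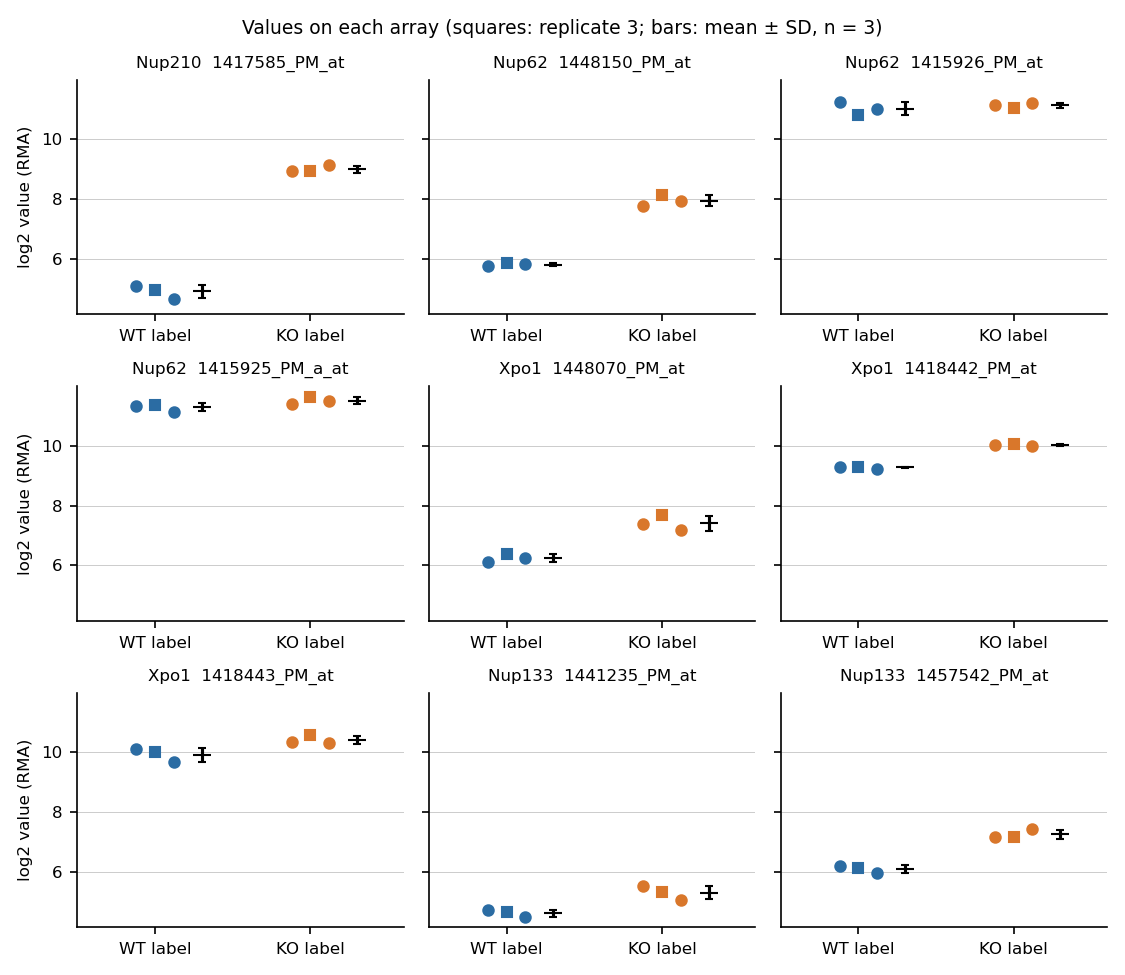
Log2 value on each of the 6 arrays for the probe sets of Nup210, Nup62, Xpo1 and Nup133, with replicate 3 as squares and the mean ± SD (n = 3) of each label as bars. Nup210 and 1 probe set of Nup62 separate widely, 2 other probe sets of Nup62 stay between 10.82 and 11.62, and every probe set of Xpo1 and Nup133 is higher under the KO label.

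Of the Ran cycle, Ran itself, the GTPase that gives transport its direction, rose by 0.44 (adjusted p = 0.023) on 1 probe set and had a difference of 0.06 on a second that read 12.36 to 12.50 on all 6 arrays. Rangap1, which stimulates GTP hydrolysis by Ran outside the nucleus, had a difference of 0.22 (adjusted p = 0.17). Of the factors that bind the RNA cap and export U snRNA, Phax, the adaptor between the cap-binding complex and Xpo1, rose by 0.36 (adjusted p = 0.017). The cap-binding subunits did not pass, with a difference of 0.60 for Ncbp2 (adjusted p = 0.084) and of −0.20 for Ncbp1 (adjusted p = 0.22). The groups of Ncbp2 only just separated (at most 6.53 against at least 6.57), and it passed with a covariate for replicate 3 (adjusted p = 0.0084). These values are from its dimmest probe set. Its other probe sets did not pass. They gave 0.38 and, on the brightest, 0.06 with overlapping groups (adjusted p = 0.11 and 0.73 over all probe sets).

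Of the factors of bulk mRNA export, 2 of 7 (28.57%) were higher and 1 (14.29%) lower, shares near the 22.6% and 19.2% of all genes, with a median of 0.23. The THO complex binds nascent mRNA and loads the export machinery. Its subunits Thoc6 and Thoc5 rose by 0.68 (adjusted p = 0.0052) and 0.56 (adjusted p = 0.0056), while Thoc7 fell, by −0.30 (adjusted p = 0.02), with 10.04 to 10.14 on the WT-labelled and 9.67 to 9.83 on the KO-labelled arrays. Thoc7 was no longer called on the arrays of replicates 1 and 5 (−0.34, adjusted p = 0.064). Thoc1 and Thoc2, the latter the scaffold of the complex, did not pass on any of 3 probe sets each, with differences of 0.17 to 0.28 and of −0.23 to −0.05. The export receptor genes did not pass, with a difference of 0.42 for Nxf1 (adjusted p = 0.093, and 0.04 on its other probe set) and 0.02 for Nxt1 (adjusted p = 0.84). Nxf1 passed with a covariate for replicate 3 (adjusted p = 0.043), after quantile normalisation (0.49, adjusted p = 0.048) and without the replicate 3 array labelled KO (0.55, adjusted p = 0.039).

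Probe sets of the same gene were then set against each other. Of the 70 probe sets 29 (41.43%) were higher, 1 was lower and 40 did not pass, where 16.8% of all probe sets were higher and 16.0% lower. Every probe set rose in 4 of the 19 genes with several probe sets (Nup133, Nup43, Nup98 and Xpo1). In 8 some rose and in 7 none passed, and 0 genes had probe sets called in opposite directions. These classes were not counted over all genes, so the counts cannot be called high or low. The changes of 2 probe sets of a gene differed in 10 of 43 pairs (23.26%), a share close to the 21.3% of all 19058 such pairs on the array. These pairs fell in 7 genes, Kpnb1, Nup153, Nup50, Nup62, Rae1, Snupn and Xpo1, and differed by over 1 only for Nup62. Of the 70 probe sets 6 had a mean log2 value under 5, of which 1 (Nup133) was called. Because the most variable probe set is the one most likely to show a difference, the genes were also read by their brightest one, which was another probe set for 12 genes. Then 18 rose and 1 fell, where 21.33% and 18.16% of all genes did. The median change was 0.29, and 2 genes, Nup210 and Nup133, rose by over 2-fold. Of the genes called by their most variable probe set, Nup62, Nup50, Nup205, Kpnb1 and Ran did not pass by this choice.

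**Figure D4:**
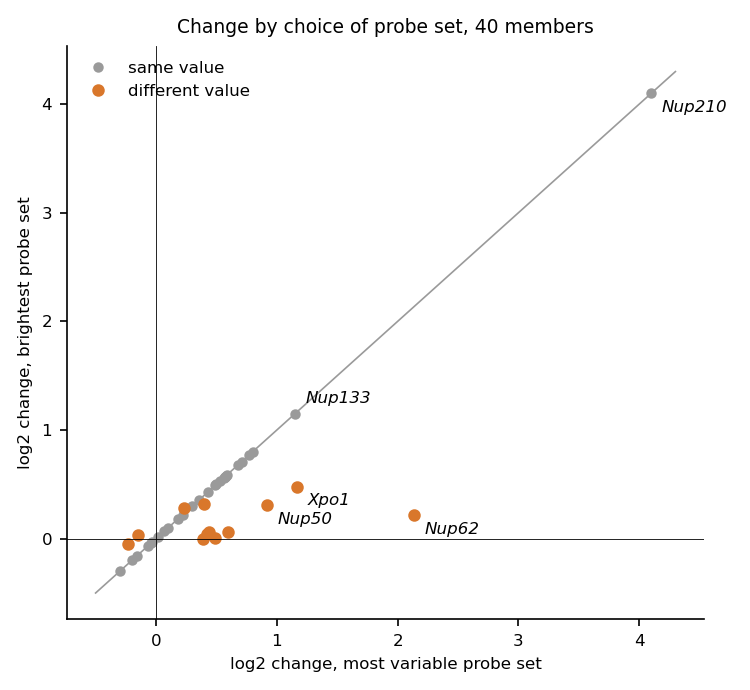
Log2 change of each of the 40 genes by its most variable probe set (horizontal axis) and by its brightest probe set (vertical axis), with the line of equal values. Genes in orange have different values by the 2 choices, and Nup62 (2.14 against 0.22) lies farthest from the line.

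The regions just upstream of the genes that rose by over 2-fold are shown because these genes changed in the same direction under 1 contrast. Each line gives 250 bases that end just before the RefSeq transcript start (GRCm38.p6), 5′ to 3′ on the strand of the gene. Capitals mark matches on either strand to a set of promoter motifs, which are the GC box GGGCGG, the CCAAT box, the E-box CACGTG, the TATA box TATAAA and the NRF1 core GCATGCGC.
Nup210 (chr6:91116827-91117076, minus strand): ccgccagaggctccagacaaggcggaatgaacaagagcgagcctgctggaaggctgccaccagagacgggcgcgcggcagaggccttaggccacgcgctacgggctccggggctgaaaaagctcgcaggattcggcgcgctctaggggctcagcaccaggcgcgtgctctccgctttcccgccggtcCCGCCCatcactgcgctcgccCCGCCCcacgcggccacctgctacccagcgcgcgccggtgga
Nup62 (chr7:44815838-44816087, plus strand): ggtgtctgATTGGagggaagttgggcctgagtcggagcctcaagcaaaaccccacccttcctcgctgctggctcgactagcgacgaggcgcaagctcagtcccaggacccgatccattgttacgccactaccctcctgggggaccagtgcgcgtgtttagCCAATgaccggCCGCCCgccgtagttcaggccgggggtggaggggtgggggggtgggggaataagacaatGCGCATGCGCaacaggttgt
Xpo1 (chr11:23255791-23256040, plus strand): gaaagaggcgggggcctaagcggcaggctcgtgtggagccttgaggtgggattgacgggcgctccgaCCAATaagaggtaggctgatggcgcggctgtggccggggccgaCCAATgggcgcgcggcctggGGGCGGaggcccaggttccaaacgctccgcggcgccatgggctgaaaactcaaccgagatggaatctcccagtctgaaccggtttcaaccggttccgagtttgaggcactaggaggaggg
Nup133 (chr8:123949266-123949515, minus strand): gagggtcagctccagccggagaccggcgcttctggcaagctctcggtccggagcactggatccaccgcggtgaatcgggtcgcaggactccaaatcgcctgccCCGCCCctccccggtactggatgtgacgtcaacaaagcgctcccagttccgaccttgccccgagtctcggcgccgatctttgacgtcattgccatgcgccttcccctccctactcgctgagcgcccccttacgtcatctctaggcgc
All 4 windows held at least 1 GC box and none held a TATA box or an E-box. Nup62 and Xpo1 each held 2 CCAAT boxes. Only Nup62 held the NRF1 core, with 2 overlapping matches on opposite strands. Over the 36 of the 44 genes with an entry, 69.4% of windows held a GC box (42.7% of the windows of all 17492 protein-coding genes), 38.9% a CCAAT box (36.3%), 16.7% an E-box (6.64%), 5.56% a TATA box (12.4%) and 13.9% the NRF1 core (2.99%). The median number of CpG dinucleotides per window was 21 against 10, and the median GC content 64.2% against 55.2% and the part of this composition in the motif shares was not tested. A match is a run of letters and not a binding site.

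Other genes of nuclear transport, listed by family, had medians nearer 0 than the 40 genes, a difference that was not tested. Of 7 other nucleoporins and pore assembly genes 0 rose and 2 (28.57%) fell, with a median of 0.17, beside 22.6% and 19.2% of all genes. Nupl2 did not pass by its most variable probe set. It rose by 0.72 on its brighter one (adjusted p = 0.025 over all probe sets). Nupl1, which encodes Nup58, the partner of Nup62 and Nup54 in the channel, fell by −1.06 (adjusted p = 0.00061), with 8.87 to 9.24 on the WT-labelled and 7.89 to 8.13 on the KO-labelled arrays, and its 2 other probe sets fell by −0.78 and −0.77. This ran opposite to Nup54 and to the changed probe set of Nup62. Tmem33, a relative of a yeast pore membrane protein, fell by −0.90 (adjusted p = 0.029), with a fall on 2 of its 5 probe sets and differences of −0.15 to 0.02 on the other 3. Of 18 other importins and exportins 6 (33.33%) rose and 4 (22.22%) fell (median 0.15), beside 22.6% and 19.2% of all genes. Tnpo3 did not pass by its most variable probe set but rose by 0.44 to 0.49 on every other one (adjusted p = 0.0056 to 0.018 over all probe sets). Xpo4 had a difference of −0.50 that did not pass, but rose by 0.48 on its brightest probe set (adjusted p = 0.0094 over all probe sets). These 2 changes of Xpo4 differed by 0.98 (adjusted p = 0.011 over all pairs). Tnpo2, a transportin, rose by 1.03 (adjusted p = 0.0016) and by 0.84 and 0.49 on its other probe sets. Ipo5, which imports histones and ribosomal proteins, rose by 0.95 (adjusted p = 0.016), by 0.61 on another probe set and had a difference of 0.38 on the last, which did not pass. The importin alpha genes Kpna3, Kpna2 and Kpna6 fell by −0.72 (adjusted p = 0.027), −0.61 (adjusted p = 0.0055) and −0.29 (adjusted p = 0.033), with differences of −0.41 for Kpna3 and −0.16 for Kpna6 on a further probe set each that did not pass. Kpna7, of the same family, had a difference of 0.16 in the other direction that did not pass (adjusted p = 0.088). Kpna1 and Kpna4 were also listed but not measured. Ipo9, which is not an importin alpha gene, fell too, by −0.58 (adjusted p = 0.00064) and by −0.32 and −0.31 on its other probe sets. Cse1l, the exportin that returns importin alpha to the cytoplasm, rose by 0.32 (adjusted p = 0.0094).

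Of 5 other genes listed as regulators of Ran 2 (40%) rose and 1 (20%) fell (median 0.16). This is a small set beside the 22.6% and 19.2% of all genes. The fall was that of Ranbp9 (−0.66, adjusted p = 0.0014). Rangrf rose by 0.75 but passed only narrowly (adjusted p = 0.049, and 0.059 over all probe sets). Rcc1, the nucleotide exchange factor that charges Ran with GTP on chromatin, rose by 0.90 (adjusted p = 0.011). Of 20 other mRNA export factors 5 (25%) rose and 4 (20%) fell (median −0.04), about the 22.6% and 19.2% of all genes. The RNA helicase gene Ddx19b, which remodels mRNA at the cytoplasmic face of the pore, rose by 2.17 (adjusted p = 1.5e-05), with 2.16, 1.68 and 0.79 on its other probe sets, but Ddx19a is nearly identical in sequence and the probe sets may not tell them apart. Pcid2, a subunit of the TREX-2 complex that brings mRNA to the basket, rose by 1.23 (adjusted p = 0.00044), and by 1.04 on its other probe set. The complex did not rise as a whole. By their most variable probe sets its genes Cetn2 and Eny2 fell by −0.42 and −0.40 (adjusted p = 0.024 for each). Mcm3ap (0.32), Cetn3 (−0.46) and Sem1 (−0.20) did not pass. Fyttd1, an adaptor of Nxf1, fell by −0.96 on its most variable probe set (adjusted p = 0.0011) and by −0.48 and −0.42 on 2 others, but its brightest had a difference of 0.01 with overlapping groups, and the changes of the first and the last differed (0.97, adjusted p = 0.0028). Ddx39b, the helicase that acts with THO, rose by 0.45 (adjusted p = 0.029) and its paralog Ddx39a by 0.58 (adjusted p = 0.0011).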

How the data were processed

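The authors processed the arrays with RMA and deposited 1 log2 value per probe set and array. Their model had the scan batch as covariate, which could not be repeated, since the scan batches are not given in the sources used here. Of 45141 probe sets, 104 were array controls, 28898 had 1 gene symbol in the platform annotation, 551 had several and 15692 were unnamed here. Of those with 1 symbol, 28689 matched a RefSeq gene table (GRCm38.p6), which changed 0 symbols. Each of 17097 genes was read from the probe set that varied most across the 6 arrays, following the study's methods.

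Changes, arrays labelled KO minus WT, were tested on all probe sets with limma 3.58.1 (lmFit, eBayes; R 4.3.3), with Benjamini-Hochberg adjustment over 17097 genes, over 45037 probe sets, or over the 19058 pairs of probe sets in 7180 genes, for which the model was fitted to the difference of 2 log2 values. A call needed an adjusted p under 0.05. Adjusted p-values are over genes unless stated otherwise. The calculation was tested on simulated data. Neither detection calls nor intensities were used. The small number of arrays limits precision, and the smallest p of an exact permutation test with 3 arrays a group is 0.1.

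Values on every array are given for genes changed by over 2-fold (log2 change over 1) or with probe sets that differ by over 1, and other members by change or range. The members, gene lists and rules were chosen with earlier results of these data known. Other transport genes named in the text were picked from their lists after their values were seen. Alternatives were a block for the replicate number, a covariate for replicate 3, replicates 1 and 5 alone, the choice of probe set, normalisation, a filter at a mean of 6, the variance model and each array left out. Promoter windows came from RefSeq (first listed start per gene) and were searched with Python 3.11.15. Figures were drawn with matplotlib 3.10.9.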

Additional observations from a re-analysis of the deposited data

How the results depend on the processing

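Of 636 log2 changes of single genes under the alternatives, 589 kept their side of the threshold, 37 lost and 10 gained a call and 0 reversed as a call. The sign changed for 13 of the 589, which passed neither way. Of the 24 genes called, 11 were called under every alternative that gave a value. The number of genes called (24) ranged from 18 to 27 and of probe sets called (30) from 20 to 36. The number over 2-fold (4) was 2 with the brightest probe set and 1 (Nup210) with the mean of all probe sets of a gene, and the median change (0.43) was 0.29 under both. The number of differing pairs (10) was 16 with the covariate for replicate 3, 6 on replicates 1 and 5 alone, and 4 to 9 with 1 array left out, with the lowest number without WT replicate 1 or KO replicate 5. The cause was not tested. Calls also ended for Nup107, Nup37, Nup54, Nup214, Ran and Phax on replicates 1 and 5, and for Nup153 without shared-probe sets (0.22, adjusted p = 0.071). With 1 array left out, calls ended for Nup37 (0.31 to 0.50, for each array but WT3), Nup107 (0.26 to 0.30, WT5, KO3 or KO5), Nup54 (0.51 to 0.56, WT3, KO3 or KO5), Ran (0.35 to 0.45, WT3, WT5 or KO3), Phax (0.33 and 0.31, WT3 or WT5), Snupn (0.46 to 0.49, WT1, KO1 or KO5) and Thoc7 (−0.27 and −0.25, WT5 or KO5), at adjusted p-values of 0.051 to 0.12 from limma, and began for Xpot (0.55, WT1), Nxf1 (0.55, KO3) and Ncbp2 (0.79, KO3).

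Arrays with the same replicate number did not all deviate together (r = 0.06, 0.56 and 0.15 for numbers 1, 3 and 5, over all probe sets). WT5 correlated best with KO1 (0.31), so the numbers were not taken as pairs. Over the 70 probe sets of the listed genes these values were 0.08, 0.85 and 0.16, and 0.59 for WT5 with KO1. For WT3 with KO1 the value was −0.72 there. The main model has no covariate for such shared deviations. With the replicate number as a block, 25 genes (24 higher, 1 lower), 32 probe sets and 13 pairs were called. By that model 24.99% of all genes were higher and 21.09% lower. No detection calls were used, and 6 of the 70 probe sets had a mean under 5. With only probe sets of a mean of 6 or more, 24 of 38 genes (23 higher, 1 lower) and 7 pairs were called. By that filter 29.61% of all genes were higher and 28.88% lower.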
